A study of Rattus norvegicus with 4 samples.

Results

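Chromosomes 2 and 11 of the rat carried the densest CD44 peaks of all autosomes in nucleus pulposus cells kept in serum. The regions described are all peaks on these chromosomes in the 2 deposited peak lists, chosen by chromosome because earlier results showed many serum peaks there. They number 98245 of the 699216 peaks of the series, with 44630 of 289279 in the serum list and 53615 of 409937 in the starved list. The serum peak density that chose the chromosomes, and every measure from the same peaks, is given below as a description with no test.

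The study precipitated DNA with an antibody against CD44 from cultured rat nucleus pulposus cells, which fill and maintain the gel-like core of the intervertebral disc. The serum group was kept in 10% fetal bovine serum and the starved group in 0.1%. Each group has 1 precipitated library and 1 input library, and no genetic change or further agent is named for either. The sources used here do not give the strain, age and number of animals, the passage of the cells or the length of starvation. Peak lists hold no expression values, so the labelled cell type could not be checked against markers.

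CD44 is a membrane glycoprotein that binds hyaluronan, a large sugar polymer of the disc matrix. After cleavage within the membrane, its intracellular part can reach the nucleus, where it has been described to act with transcription factors and coactivators. CD44 itself has no classical DNA-binding domain, so DNA recovered with its antibody is usually taken to be held through partner proteins. Serum withdrawal is a common way to take cultured cells out of the cell cycle.

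A peak's pileup is the number of fragments stacked at its highest point, and its q is the authors' false discovery rate, where a larger −log10 q marks a stronger peak. The local background is the fragment height that the peak caller took as the surroundings' level, recovered from pileup and fold enrichment. The lists differ in the heights they rest on. The lowest background was 15.1 times as high among serum peaks as among starved peaks, with 1.50 and 0.0996 fragments, and the median pileup was 7 and 2. The input and the scaling used in peak calling are not stated, so these values show depth only after any such scaling, and read depth itself was not measured. Pileups, folds and q-values are therefore read within a list. With 1 precipitated library per group there is no replicate error and no test between groups, and all intervals cover counting error only. Differences between the conditions and differences in depth or scaling cannot be told apart here.

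Serum peaks were denser on chromosomes 2 and 11 than on the other 18 autosomes together, while starved peaks were only slightly denser. Chromosome 2 held 33542 serum peaks, or 126 per Mb (95% Poisson interval 125 to 127), and chromosome 11 held 11088, or 123 per Mb (interval 120 to 125). These were the first and second of the 20 autosomes. The next was chromosome 15 with 114 per Mb (interval 112 to 116), and the lowest was chromosome 4 with 43.0. The other autosomes had 94.8 serum peaks per Mb together, so that chromosome 2 stood at 1.33 times (interval 1.31 to 1.34) and chromosome 11 at 1.29 times (interval 1.27 to 1.32) their density. The 3 sparsest autosomes, chromosomes 4, 10 and 12, lower the comparison, and without them the ratio for both chromosomes together was 1.21 in place of 1.32. Chromosome X, which is no autosome, was denser than both, with 179 per Mb.

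In the starved list chromosome 2 held 40362 peaks, or 151 per Mb (interval 150 to 153), again the first of the 20 autosomes. Chromosome 11 held 13253, or 147 per Mb (interval 144 to 149), and was the third, behind chromosome 1 with 149. The ratios to the other autosomes were 1.05 (interval 1.04 to 1.06) and 1.02 (interval 1.00 to 1.04). The number of serum peaks per starved peak was 0.831 on chromosome 2 and 0.837 on chromosome 11, the highest values among the autosomes, whose others ran from 0.296 to 0.797. The 2 chromosomes made up 13.6% of the autosomal length, 17.2% of the autosomal serum peaks and 14.1% of the autosomal starved peaks.

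**Figure D1:**
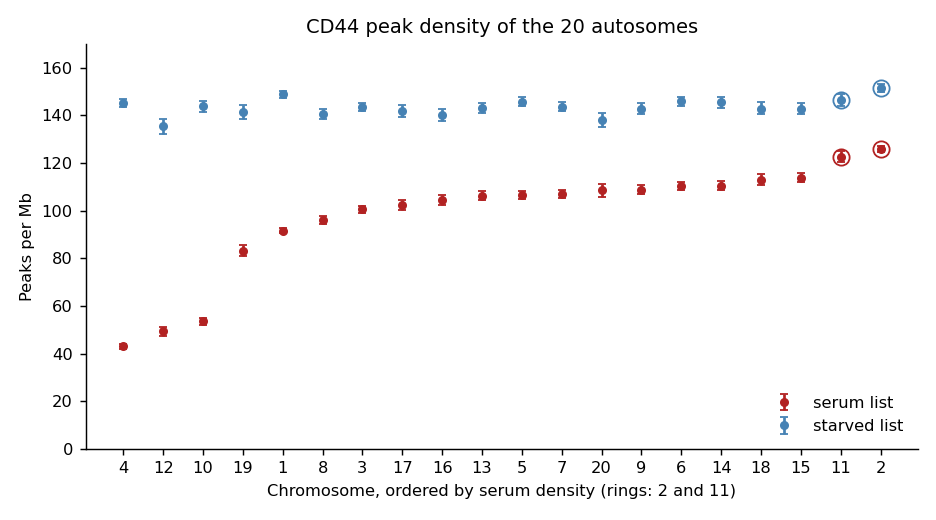
Peaks per Mb of each autosome in the serum list (red) and the starved list (blue), ordered by serum density, with exact 95% Poisson intervals as bars and rings around chromosomes 2 and 11. Serum density ran from 43.0 on chromosome 4 to 126 on chromosome 2, and starved density stayed between 135 and 151.

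On chromosome 2 the serum density was higher than on the other autosomes in all classes of strength up to a −log10 q of 20, and on chromosome 11 in most of them. On chromosome 2, 6954 serum peaks had a q of at most 0.05, and on chromosome 11 there were 2189, which is 26.1 and 24.2 per Mb against 18.4 on the other autosomes. At a −log10 q of 3 to 5 the ratio was 1.47 (interval 1.35 to 1.61) on chromosome 2 and 1.09 (interval 0.923 to 1.28) on chromosome 11, where it was not apart from 1 within counting error. Together the peaks with a q of at most 0.05 were 9143 of the 44630, against 19.9% of the whole serum list. Strong serum peaks, which here means a −log10 q of 5 or more, numbered 402 (1.20%) and 136 (1.23%) on the 2 chromosomes. These shares were near the 1.22% of the whole list. Among autosomes, the densities of strong serum peaks, 1.51 and 1.50 per Mb, were exceeded only by 1.72 on chromosome 9. At 10 to 20 the ratios were 1.37 (interval 1.11 to 1.69) and 1.37 (interval 0.972 to 1.94). At a −log10 q of 20 or more, a level reached by 0.109% of the whole list, the 31 and 12 peaks gave ratios of 1.16 (interval 0.797 to 1.69) and 1.32 (interval 0.740 to 2.36), too few to set either apart from the other autosomes.

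By height, and taken over whole chromosomes, chromosomes 2 and 11 behaved alike for low serum peaks and differed for tall ones. Serum peaks of 4 to 5 fragments were 1.33 times as dense on chromosome 2 and 1.37 times on chromosome 11 as on the other autosomes. For peaks of 10 to 14 fragments the ratios were 1.46 (interval 1.40 to 1.52) and 1.18 (interval 1.09 to 1.27). For peaks of 15 fragments or more they were 1.59 (interval 1.51 to 1.68) and 1.13 (interval 1.02 to 1.25), so that the counting intervals of the 2 chromosomes did not meet. These intervals take peaks as independent, and the tall peaks of chromosome 2 were not spread evenly. Of its 1525, 383 lay in the first 20 Mb and 200 at 155 to 165 Mb, sections described below. The higher ratio is therefore not a trait of the whole length of chromosome 2. The median serum pileup was 7 on both chromosomes and on the other autosomes together, with quartiles of 6 and 8 in all 3.

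In the starved list the ratios were closer to 1 at every height. Peaks of a single fragment were 1.04 times as dense on chromosome 2 and 1.02 times on chromosome 11. The highest ratios were at 8 to 14 fragments, with 1.17 (interval 1.12 to 1.22) and 1.12 (interval 1.04 to 1.20). A q of at most 0.05 was reached by 21366 starved peaks on chromosome 2 and 7073 on chromosome 11, against 52% of the whole starved list. Strong starved peaks numbered 5465 (13.5%) and 1803 (13.6%), or 20.5 and 19.9 per Mb, the first and second of the autosomes. The other autosomes had 18.5 per Mb, and 13% of the whole starved list was strong.

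**Figure D2:**
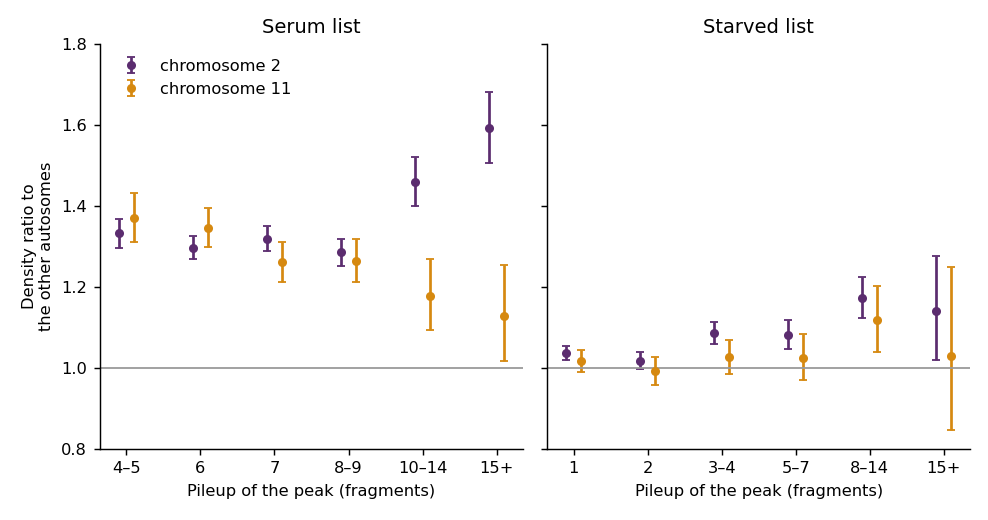
Density of peaks on chromosome 2 (purple) and chromosome 11 (orange) divided by that of the other autosomes, for classes of pileup in fragments, with 95% counting intervals. In the serum list all ratios lie above 1 and the 2 chromosomes part at 10 fragments or more, to 1.59 and 1.13 in the tallest class, while the starved ratios lie between 0.992 and 1.17. Many of the tallest serum peaks of chromosome 2 lie in a few sections.

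Along chromosome 2 the serum excess was spread over most of its length, and along chromosome 11 it was interrupted by sparse sections. Each chromosome was cut into windows of 5 Mb. The 53 full windows of chromosome 2 held from 392 to 871 serum peaks with a median of 630. The 444 full windows of the other autosomes held from 26 to 922 with a median of 490. Of the chromosome 2 windows, 45 (84.9%) lay above that median and 0 lay under the lower quartile of 345. The coefficient of variation over the windows of chromosome 2 was 19.0%, lower than on any other autosome, where it ran from 20.1% to 64.9%.

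The 18 full windows of chromosome 11 held from 352 to 918 serum peaks with a median of 673. Of these, 12 lay above the median of the other autosomes, and 11 of those lay above their upper quartile of 610. The remaining 6 windows lay between 352 and 471, below the median but with 0 under the lower quartile of the other autosomes. The coefficient of variation was 27.6%, above that of chromosome 2 and below the median of 32.7% over the other autosomes.

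The starved counts varied less than the serum counts on both chromosomes, with coefficients of variation of 13.3% and 10.3%. For the starved list the 13.3% of chromosome 2 was the highest of the 20 autosomes, where the others ran from 6.69% to 11.4%. The starved counts ran from 599 to 1148 on chromosome 2 with a median of 756, and from 631 to 944 on chromosome 11 with a median of 709, while the other autosomes had a median window of 712. Of the windows, 36 of 53 on chromosome 2 and 8 of 18 on chromosome 11 lay above that median. In 29 windows of chromosome 2 both lists were above the median of the other autosomes, in 16 only the serum list, in 7 only the starved list and in 1 neither. On chromosome 11 these numbers were 6, 6, 2 and 4. Serum peaks outnumbered starved peaks in 7 windows of chromosome 2 and 5 of chromosome 11, against 48 of the 444 windows elsewhere (10.8%).

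**Figure D3:**
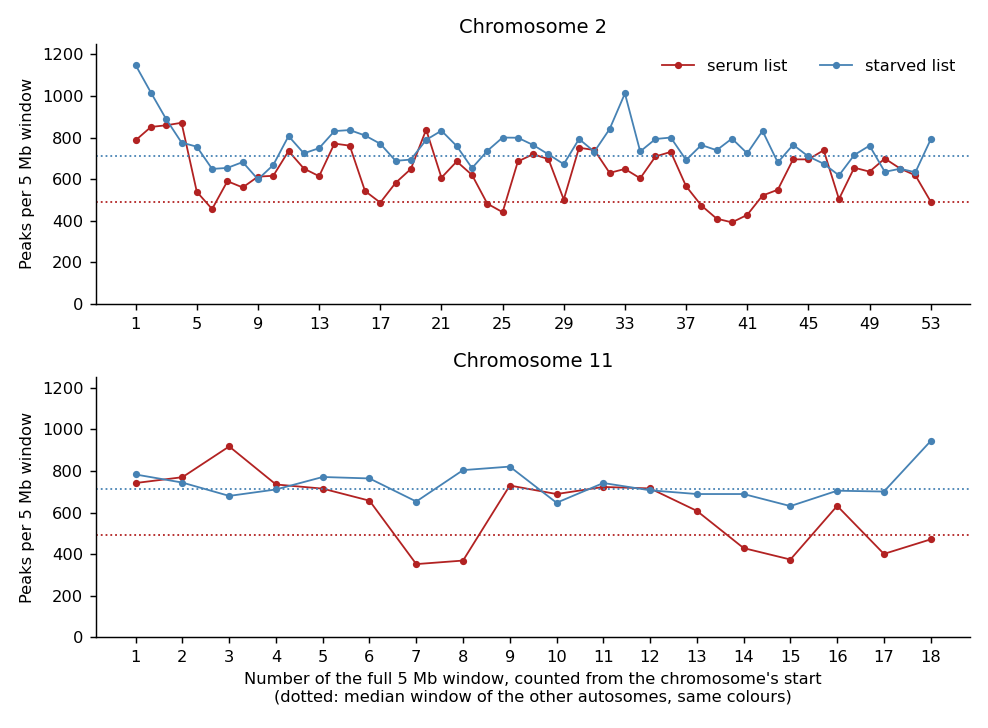
Number of serum (red) and starved (blue) peaks in each full window of 5 Mb, in order along chromosome 2 (top) and chromosome 11 (bottom), with dotted lines for the median window of the other autosomes (490 serum and 712 starved peaks). On chromosome 2 the first 4 windows hold 787 to 871 serum peaks, and chromosome 11 shows runs of windows at 352 to 471 serum peaks between runs of 608 to 918.

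The window richest in serum peaks on chromosome 2 ran from 15000001 to 20000000 on Rnor_6.0, with 871 serum and 776 starved peaks. It also had the highest number of serum peaks per starved peak, 1.12. The second richest, from 10000001 to 15000000, held 859 and 888. The poorest windows ran from 195000001 to 200000000, with 392 serum and 795 starved peaks, and from 190000001 to 195000000, with 410 and 739. The first of these had the lowest ratio of the chromosome, 0.493.

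On chromosome 11 the richest window ran from 10000001 to 15000000, with 918 serum and 680 starved peaks, a ratio of 1.35. Only 2 of the 444 windows on the other autosomes held more serum peaks. The next, from 5000001 to 10000000, held 770 and 744. The poorest windows were neighbours. Between 30000001 and 35000000 there were 352 serum and 653 starved peaks, and between 35000001 and 40000000 there were 369 and 804, the lowest ratio of the chromosome at 0.459. The window before this pair held 657 serum peaks and the window after it held 730.

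The sparse sections of chromosome 11 lay at 30 to 40 Mb, 65 to 75 Mb and 80 to 90 Mb, and were singled out after their values were seen. Over these 30 Mb there were 79.9 serum peaks per Mb, against 144 over the remaining 60.5 Mb and 94.8 on the other autosomes. The sections are the windows with the fewest serum peaks, so these serum densities differ by choice. The total number of starved peaks was alike in both parts, with 147 per Mb in the sparse sections and 146 in the remainder. The sparse sections include the window from 85000001 to 90000000, which had the most starved peaks of the chromosome, 944, while the 5 other sparse windows held 631 to 804. Strong and long starved peaks did differ in the same direction as the serum peaks. Strong ones numbered 17.0 per Mb in the sparse sections and 21.4 in the remainder, and those of 1 kb or more 2.13 and 3.85 per Mb. Of the 64 long starved peaks of the sparse sections, 53 lay in the window from 85000001 to 90000000. Each of the other sparse windows held 1 to 4. Starved peaks overlapped a serum peak in 8.68% in the sparse sections and 13.8% in the remainder. Serum peaks overlapped a starved peak in 16.4% and 13.99%, the reverse order. The sections were chosen for few serum peaks, so the starved share is not independent of that choice. Of the serum peaks, 14.5% lay at the lowest background of the list in the sparse sections and 37.8% in the remainder, and of the starved peaks 11.8% and 21.3%. This level takes in backgrounds within 1% of the smallest value in a list.

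Windows with a larger share of serum peaks at the lowest background tended to hold more serum peaks. On chromosome 2 the share of serum peaks at the lowest background ran from 12.2% to 54.6% of a window's peaks, and its Spearman rho with the number of serum peaks was 0.586 over 53 windows. On chromosome 11 it ran from 5.68% to 47.9%, with a rho of 0.905 over 18 windows. On the other autosomes the rho per chromosome ran from 0.186 to 0.888, with a median of 0.745. Between the lists the shares had a rho of 0.851 on chromosome 2 and 0.917 on chromosome 11, while the peak numbers had 0.305 and 0.259. Both quantities of a window come from the same peaks and libraries, and the part of the background in the peak number was not tested.

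Over whole chromosomes, 30.5% of serum peaks on chromosome 2 and 32.8% on chromosome 11 were at the lowest background. Among the autosomes, only chromosome 20 had a higher share than both, 47.7%, with 108 serum peaks per Mb. Chromosome X had both the higher share, 74.2%, and the higher density, 179 per Mb. The median serum background was 1.09 times the lowest on both chromosomes and 1.15 times on the other autosomes together. In the starved list it was 1.42 times in all 3.

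**Figure D4:**
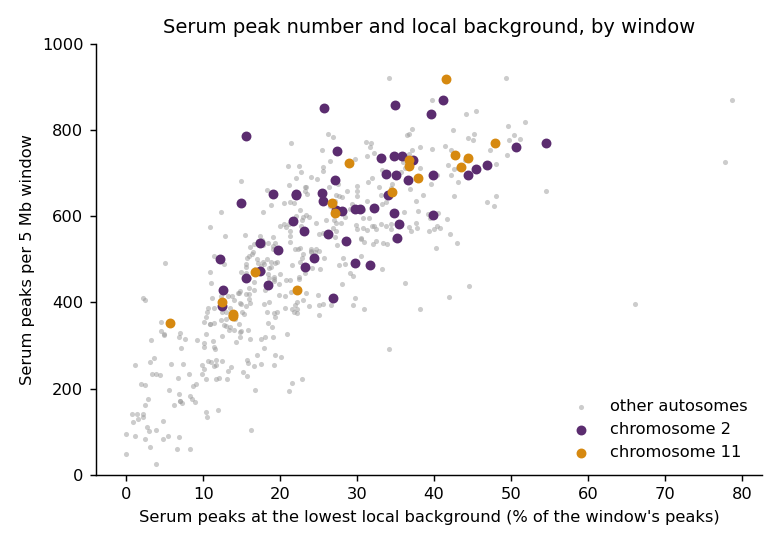
Serum peaks per full window of 5 Mb against the percentage of them at the lowest local background, for chromosome 2 (purple), chromosome 11 (orange) and the other autosomes (grey). Windows with more peaks at the lowest background held more peaks on both chromosomes, and the 2 windows of chromosome 2 at 15.6% and 25.7% with 787 and 851 peaks lie above the main band.

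The first 20 Mb of chromosome 2 stood apart from the remainder of the chromosome in both lists, with more peaks, more strong peaks and many long starved peaks. This section, like the others that follow, was singled out after its values were seen. Ratios and counting intervals of such sections describe them and test nothing. It held 383 serum peaks of 15 fragments or more, 5.33 times (interval 4.81 to 5.90) the density of the other autosomes. In all, it held 168 serum peaks per Mb (interval 163 to 174) and 191 starved peaks per Mb (interval 185 to 198). Its 77 strong serum peaks were 19.2% of those of the chromosome on 7.51% of its length, and its 566 strong starved peaks were 10.4%. Without these 20 Mb, chromosome 2 kept 122 serum peaks per Mb (interval 121 to 124), 1.29 times the other autosomes. Its starved density was then 148 per Mb, just under that of chromosome 1.

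Within this section the 2 lists ran in opposite directions. The serum counts of its 4 windows were 787, 851, 859 and 871, and the starved counts were 1148, 1016, 888 and 776. The first window held the most starved peaks of chromosome 2, and starved peaks became fewer over the 4 windows while serum peaks became more numerous. The share of serum peaks whose background was more than 2 times the lowest, called raised here, was 43.3%, 20.9%, 9.66% and 7.58%. In the starved list it was 59.1%, 43.8%, 27.8% and 25.3%. The number of serum peaks thus rose as the share with a raised background fell. Their share at the lowest background rose with the number, as over the windows of the whole chromosome. The first 1.5 Mb had the most raised background, with medians of 5.07, 4.85 and 4.34 times the lowest over its 3 stretches of 500 kb.

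Long starved peaks, of 1 kb or more, were denser on both chromosomes than on any other autosome. For long serum peaks this held on chromosome 2. There were 989 long starved peaks on chromosome 2, or 3.71 per Mb (interval 3.48 to 3.95), and 297 on chromosome 11, or 3.28 per Mb (interval 2.92 to 3.68). These were the first and second densities of the 20 autosomes, followed by 2.96 on chromosome 4 (interval 2.715 to 3.22). The counting intervals of chromosomes 11 and 4 met, so the second place was not set apart within counting error. The other autosomes had 2.23 per Mb together, so the ratios were 1.67 (interval 1.56 to 1.78) and 1.47 (interval 1.31 to 1.66), well above the ratios of 1.05 and 1.02 for starved peaks of all lengths. As a share of the peaks, long ones made up 2.45% and 2.24% on the 2 chromosomes, 1.55% on the other autosomes and 1.83% of the whole starved list.

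The first 20 Mb of chromosome 2 held 236 of its 989 long starved peaks (23.9%), or 11.8 per Mb. By window there were 71, 88, 49 and 28. The chromosome outside this section still had 3.06 per Mb, 1.37 times (interval 1.27 to 1.48) the other autosomes. On chromosome 11 the window with the most long starved peaks was the last full one, from 85000001 to 90000000. It held 53 of the 297, although it was among the poorer in serum peaks with 471. The density of the chromosome without this window was not computed. Outside the sparse sections, chromosome 11 had 3.85 long starved peaks per Mb.

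Long serum peaks numbered 402 on chromosome 2, or 1.51 per Mb (interval 1.36 to 1.66), the highest density of the autosomes. Chromosome 11 had 110, or 1.22 per Mb (interval 0.999 to 1.47), the fifth highest. As a share of the serum peaks, long ones were 1.20% on chromosome 2 and 0.992% on chromosome 11, against 1.01% on the other autosomes and 1.1% of the whole serum list, so that chromosome 11 did not have the larger share. Of the long starved peaks, 680 on chromosome 2 (68.8%) and 205 on chromosome 11 (69.0%) overlapped a serum peak, against 66.4% in the whole list. Of the long serum peaks, 180 (44.8%) and 38 (34.5%) overlapped a starved peak, against 42% in the whole list. These shares were near those of the whole lists, except for the long serum peaks of chromosome 11. Their share was lower, with a binomial interval of 25.7 to 44.2 that takes in the 42%.

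A second section of chromosome 2, from 155 to 165 Mb, was rich in tall serum peaks without a starved counterpart. It held 128 serum and 185 starved peaks per Mb. Its serum density was close to that of the chromosome, and its starved density was 1.29 times (interval 1.23 to 1.35) that of the other autosomes. It had 200 serum peaks of 15 fragments or more, 5.56 times the density on the other autosomes (interval 4.83 to 6.40), and 118 of them overlapped no starved peak. In contrast to the first 20 Mb, it held few long starved peaks, 13 against 39 long serum peaks. Its starved peaks were short, with a median of 220 bp against 234 bp over the 2 chromosomes. The shortest peak of the starved list measured 217 bp. Of its starved peaks, 46.1% consisted of a single fragment, against 40.4% over the 2 chromosomes and 40.85% on the other autosomes. A raised background held for 33.9% of its serum and 40.6% of its starved peaks, against 9.24% and 25.6% on the other autosomes.

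Over the whole of chromosome 2, 1183 of the 1525 serum peaks of 15 fragments or more (77.6%, interval 75.4 to 79.7) overlapped a starved peak. On chromosome 11 these were 336 of 367 (91.6%, interval 88.2 to 94.2), and on the other autosomes 84.3%. Of the 342 tall peaks of chromosome 2 without overlap, 112 lay in its first window, 118 at 155 to 165 Mb and 36 at 190 to 200 Mb. The median background was 5.11 times the lowest for these 342 and 3.98 times for the shared ones. A q above 0.05 held for 154 (45.0%) of the unshared and 250 (21.1%) of the shared tall peaks, so that a pileup of 15 or more did not always mark a strong peak. The other autosomes were similar, with 40.8% of the unshared and 18.9% of the shared tall peaks at such a q, and median backgrounds of 5.42 and 3.98 times the lowest.

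Of the 1525 tall serum peaks of chromosome 2, 383 lay in its first 20 Mb, 200 at 155 to 165 Mb and 70 at 190 to 200 Mb, and 872 on the remaining 226 Mb. Because these sections were picked from such values, the tall serum peaks of this remainder are not compared with the other autosomes. Of the 533 stretches of 500 kb on chromosome 2, 11 (2.06%) had a median serum background of more than 2 times the lowest. All 11 lay in these 3 sections. There were 0 such stretches of 181 on chromosome 11, against 2.29% on the other autosomes together. The share of chromosome 2 was thus near that of the others, and chromosomes 6, 14 and 18 also had 0.

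**Figure D5:**
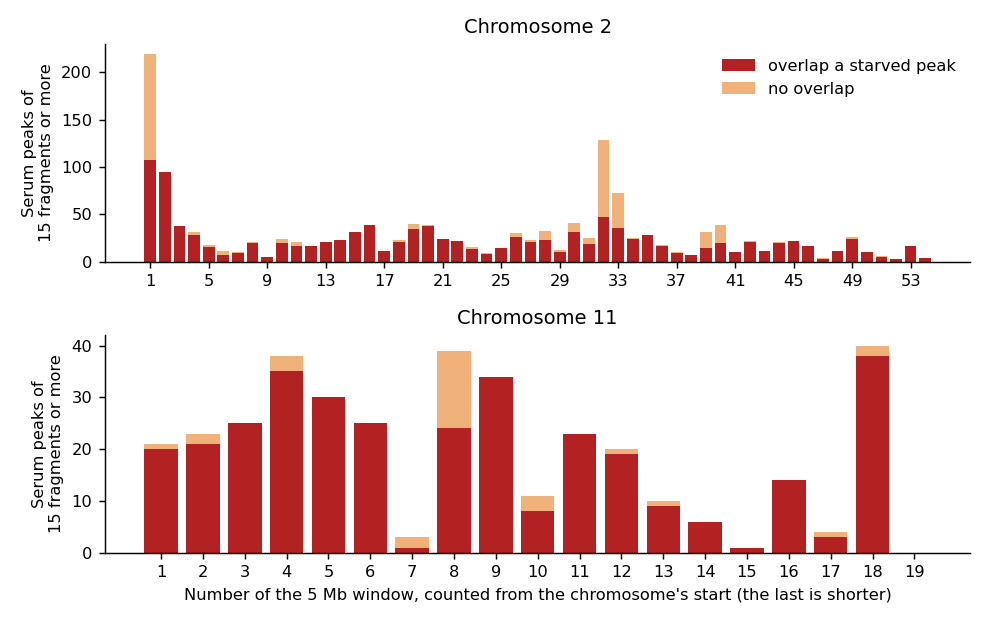
Serum peaks of 15 fragments or more in each window of 5 Mb along chromosome 2 (top) and chromosome 11 (bottom), divided into those that overlap a starved peak (red) and those that do not (orange); the vertical scales differ. On chromosome 2 the unshared peaks gather in the first window (112) and at 155 to 165 Mb (118), and on chromosome 11 the largest number in a window is 15.

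Overlap between the lists was compared with the length of chromosome that each list covered. On chromosome 2, 5373 serum peaks (16.0%, binomial interval 15.6 to 16.4) overlapped a starved peak by at least 1 bp, and on chromosome 11 there were 1609 (14.5%, interval 13.9 to 15.2). The whole serum list had 15.7%, and the other autosomes 15.2%. Seen from the starved list, 5300 peaks on chromosome 2 (13.1%, interval 12.8 to 13.5) and 1599 on chromosome 11 (12.1%, interval 11.5 to 12.6) overlapped a serum peak. These were the 2 highest shares of the autosomes, above 11% in the whole starved list and 9.94% on the other autosomes.

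Serum peaks also covered more of these chromosomes. They covered 5.15% of chromosome 2 and 4.96% of chromosome 11, against 3.80% of the other autosomes. The share of starved peaks overlapping a serum peak was 2.55 and 2.43 times that coverage, against 2.61 times on the other autosomes. For serum peaks, the share was 3.30 and 3.15 times the starved coverage of 4.85% and 4.61%, against 3.51 times. Relative to the covered length, overlap was therefore not higher on chromosomes 2 and 11 than elsewhere.

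Stronger peaks were shared more often in both lists on both chromosomes. Of the serum peaks with a q above 0.05, 13.0% on chromosome 2 and 11.98% on chromosome 11 were shared. At a −log10 q of 3 to 5 the shares were 54.1% and 51.4%, at 5 to 10 they were 86.3% and 87.8%, and at 10 to 20 they were 98.0% and 100%. The other autosomes were close to these values, with 12.3%, 56.3%, 86.2% and 97.4%. At 20 or more, 30 of 31 and 12 of 12 were shared, against 96.5% in the whole list. In the starved list the shares were 9.34% and 8.46% at a q above 0.05, 23.2% and 22.8% at 5 to 10, and 26.3% and 26.6% at 10 to 20. The other autosomes had 6.95%, 17.7% and 21.2% in these classes, so the starved peaks of chromosomes 2 and 11 were shared more often at each of these strengths. These shares are not set against the serum coverage, which was 5.15% and 4.96% on the 2 chromosomes and 3.80% on the other autosomes. A −log10 q of 20 or more was reached by 0.727% of all starved peaks. At this level 111 of 335 on chromosome 2 (33.1%) and 34 of 104 on chromosome 11 (32.7%) were shared. The other autosomes had 34.8% and the whole list 36%.

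Where a serum and a starved peak overlapped, the pair was similar on both chromosomes and elsewhere. There were 5549 overlapping pairs on chromosome 2 and 1663 on chromosome 11, with a median overlap of 219 and 217 bp, and 217 bp on the other autosomes. Both peaks were strong in 298 pairs (5.37%) and 108 pairs (6.49%), against 5.42% elsewhere. The Spearman rho between the 2 pileups of a pair was 0.524 and 0.520, against 0.515. The starved peak consisted of a single fragment in 24.8% and 25.02% of the pairs.

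The serum peak with the highest fold enrichment on chromosome 2 lay from 77632159 to 77632642. It had a fold of 17.9, a pileup of 46 and a background of 1.09 times the lowest. It overlapped a starved peak from 77632209 to 77632653 with a pileup of 51 and a fold of 44.8, the second highest of the chromosome in that list. The third highest starved fold of the chromosome, 43.9, belonged to a peak close by, from 77586517 to 77587236, which overlapped a serum peak of 44 fragments. The next serum peaks by fold lay from 224290040 to 224290518 (14.8-fold, pileup 57) and from 20165863 to 20166344 (13.0-fold, pileup 66). Both were shared, with starved pileups of 13 and 17. Because the backgrounds of the lists differ, their folds are not set against each other.

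The highest starved fold on chromosome 2, 59.1, belonged to a peak without a serum counterpart from 162972378 to 162973000. It had 64 fragments on the lowest background of the list and a −log10 q of 149, and it lies inside the section at 155 to 165 Mb. The same section held the only serum peak of chromosome 2 that reached a −log10 q of 20 without a starved overlap. That peak, from 158852235 to 158852761, had a pileup of 99 on a background 17.7 times the lowest and a fold of 3.62. The longest starved peaks of the chromosome, of 5098 bp from 16171345 to 16176442 and of 4951 bp from 387477 to 392427, both lie in the first 20 Mb and each overlapped 3 serum peaks. The longest serum peaks measured 2484 bp, from 494441 to 496924, and 2357 bp, from 147018892 to 147021248. The second of them had no overlap.

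On chromosome 11 the serum peaks with the highest folds lay from 28293956 to 28294779 (11.96-fold, pileup 50), from 86052476 to 86052863 (10.1-fold, pileup 97) and from 43366181 to 43366566 (9.52-fold, pileup 24). All 3 overlapped a starved peak. The second, whose background was 5.79 times the lowest, lay within a starved peak of 1589 bp from 86051813 to 86053401 with 31 fragments, the third highest starved fold of the chromosome at 21.4. The starved peaks with the first and second folds, 23.6 from 88615414 to 88615824 and 22.4 from 70228640 to 70228960, had no serum counterpart. The longest serum peak of the chromosome measured 2874 bp, from 46253864 to 46256737, with 12 fragments at the lowest background and no starved overlap. The second longest, of 1974 bp from 85663586 to 85665559, overlapped a starved peak of 3090 bp. The longest starved peaks, of 4194 bp from 88782758 to 88786951 and 4104 bp from 85305205 to 85309308, lay in the last full window and overlapped 3 and 2 serum peaks.

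Serum peaks followed each other more closely than on the other autosomes, and starved peaks did so on chromosome 2. The median gap between neighbouring serum peaks was 4352 bp on chromosome 2 and 4476 bp on chromosome 11, below the range of 4612 to 10378 bp on the other autosomes. For starved peaks it was 3636 and 3855 bp, where the others ran from 3754 to 4517 bp, so that chromosome 11 lay inside their range. Gaps of 100 kb or more between serum peaks numbered 47 on chromosome 2 and 11 on chromosome 11, against 24 to 298 elsewhere. Between starved peaks there were 19 and 2, against 1 to 19 elsewhere with a median of 5. These gap counts are not divided by length, and chromosome 2 is the second longest autosome with 266 Mb. The longest serum gaps measured 322595 bp, from 114675958 to 114998552 on chromosome 2, and 252220 bp, from 39430705 to 39682924 on chromosome 11, inside a sparse section.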

How the data were processed

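The authors deposited 1 peak list per condition. The submitters' processing notes name Rnor_6.0 as the build and list MACS2 2.1.1, STAR 2.5.3a and FastQC, without the options used. Per the file headers, each peak has a pileup signal, a fold enrichment (a ratio to local background), a p-value, a q-value and a length. Peak names carry the prefix of a condition's library titles. Read totals were not used here.

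The local background was computed as (pileup + 1) divided by fold, minus 1. Peaks were assigned to 5 Mb windows by their midpoint, and full windows were compared. Chromosome length was the last peak end of either list. Density ratios have approximate 95% Poisson intervals, densities and shares exact ones. Overlap, background and window steps were tested on simulated data. Python 3.11.15, numpy 2.4.6, pandas 2.3.3, scipy 1.17.1 and matplotlib 3.10.9 were used.

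Chromosomes, classes and windows were chosen with earlier results of these data known. Named were the 3 highest folds, the 2 longest peaks and the strongest unshared peak at −log10 q of 20 or more per list and chromosome, and the extreme windows by serum number and ratio. Sections and stretches were added after values were seen. No annotation or genome of that build was used, so peaks have no sequence and no gene, and a planned gene list was not analysed.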

Additional observations from a re-analysis of the deposited data

How the results depend on the processing

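No paired analysis was possible because only 1 precipitated library stands for a condition, and no replicate could be left out. Values are for chromosomes 2 and 11 together. The serum density ratio to the other autosomes, 1.32, was 1.39 at a q of at most 0.05, 1.37 for strong peaks and 1.21 without chromosomes 4, 10 and 12 among the others. The starved ratio, 1.04, was 1.07, 1.10 and, without peaks of raised background, 1.06. No ratio fell below 1 in these settings.

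The share of serum peaks shared, 15.6%, was 21.4% at a q of at most 0.05 and 74.7% with strong peaks in both lists. It was 9.06% without peaks of raised background, 5.61% with 50% of both peaks overlapping, 27.3% within 500 bp and 13.0% with lists of equal number. The starved share, 12.9%, was 6.66%, 5.43%, 9.07%, 4.67%, 24.6% and 14.6% in the same settings. Shares of the other autosomes in these settings are not given, so these values show the effect of the setting and no difference between chromosomes. The median serum pileup, 7, was 9 at a q of at most 0.05 and 27 for strong peaks. The median serum length, 354 bp, was 402 bp, 472 bp and, without peaks of raised background, 349 bp. The overlap settings of 50% and 500 bp change the rule for sharing and keep all peaks, and the q and background settings change which peaks are kept. Leaving out the 500 kb stretches of raised serum background, chosen after seeing the data, kept all 6 values within their intervals. Over windows of 2 Mb the serum counts had a 3.54-fold range on chromosome 2 and 3.67-fold on chromosome 11, over 5 Mb 2.22-fold and 2.61-fold, and over 10 Mb 2.16-fold and 2.29-fold.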
